A study of Drosophila melanogaster with 3 samples.

Results

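The gene px (plexus, FBgn0003175) held the second-highest peak of a chromatin map of CG1529, a predicted zinc finger protein, in Drosophila melanogaster embryos, together with a series of much weaker peaks along its introns. The sites described are the peaks of the authors' joint list whose summit lay in the px gene body or within 10 kb of either end. This rule found 9 of the 3905 distinct peaks in that list, 8 in px and 1 in the neighbouring gene dnr1. The gene was chosen by the signal of its strongest peak and that peak's rank, so the signals and ranks below are given as a description, with no test.

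The libraries came from whole embryos of mixed sex, 0 to 14 h of age, of a transgenic strain that carries CG1529 with green fluorescent protein at its C terminus. There were 3 libraries, labelled biological replicates 1 to 3, in 1 group with no second condition. The labels name CG1529 as the antibody target but also describe the libraries as an input control. The deposited file listings derive each library's peaks from its own alignment and a separate control alignment, so they were read as CG1529 precipitations. The authors deposited a relaxed list of 30000 rows for each library and for the pooled libraries, which hold peaks and background. They also deposited the joint list, kept at a threshold on the irreproducible discovery rate and called the optimal list here. Signal is the authors' score for each peak, comparable only within 1 list, and rank 1 is the highest signal of a list. Read depth is unknown from these lists, and replicate 1 had a smaller share of rows at its highest −log10 q-value, 6.82% against 13% and 13.9% in replicates 2 and 3.

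The px protein is a nuclear protein that restricts vein formation in the developing wing, and flies that lack it make extra vein tissue. Vein position is set by epidermal growth factor receptor, Notch, bone morphogenetic protein and Hedgehog signalling in the wing primordium, after the embryonic stages sampled here. A large gene such as px can start transcripts at several promoters, and a promoter of a short transcript can lie inside an intron of the longer ones.

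px lies on the reverse strand at chr2R:22494297-22562065 (dm6, 67769 bp) and has 6 annotated transcripts from 3 start sites. The first start site, at 22562065, serves px-RA, px-RE, px-RF and px-RG. The second, 15507 bp further along, serves px-RB, and the third, 47966 bp along at 22514099, serves px-RD. The px-RD transcript has 3 exons and a coding length of 2832 bp, against 14 exons and 5985 bp for px-RA. The px-RD start site lies in intron 12 of px-RA, which is 35108 bp long.

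The strongest px peak stood just upstream of the start site of the short transcript and was steady across the libraries. It covered chr2R:22514104-22514504, with its summit 207 bp upstream of the px-RD start site, in sequence that is intronic for the long transcripts. Of the 1627 optimal summits within 500 bp of a start site, 361 (22.2%) lay likewise upstream of that start site and inside the same gene. The signal of the peak was 3098 in the optimal list, rank 2 of 3921 rows. In the relaxed lists its signal was 1181 in replicate 1, 738.2 in replicate 2 and 1174 in replicate 3, which placed it at rank 2, 3 and 2. Its mean rank was thus 2.33 ± 0.577 (SD, n = 3).

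Different sites stood above it in the individual lists. In replicate 1 the row above px was at CG14100, in replicate 3 it was the intergenic site nearest Zip89B, and in replicate 2 both the Zip89B site and the site nearest cbt ranked higher. Zip89B encodes a zinc transporter and cbt a zinc finger transcription factor. Relative to the highest signal of the same list, the px peak reached 99.2% in replicate 1, 95.1% in replicate 2 and 80.0% in replicate 3, a mean of 91.4% ± 10.1 (SD, n = 3).

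Its summit lay within 5 bp in the 3 libraries, 203, 201 and 206 bp upstream of the px-RD start site. Over the 3710 optimal peaks with an overlapping row in every library, the median spread of the library summits was 49 bp, and 108 peaks (2.91%) had a spread of 5 bp or less. Among the strongest 100 the median spread was 18.5 bp and 5 peaks were as tight. The px row was 355, 355 and 368 bp wide in the libraries, narrower than the commonest width of those lists (404, 420 and 424 bp). Rows narrower than the px row made up 2.00%, 1.73% and 2.55% of these lists. The commonest width was shared by 97.9%, 98.2% and 97.25% of rows, so few rows of any kind departed from it. In the optimal list the px peak was 401 bp wide, and 32.0% of rows were narrower.

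The other 8 sites were weaker by a wide margin. Their signals in the optimal list ran from 201.4 to 390.6, with ranks from 965 to 2759. The strongest px peak exceeded the next px site of the same list 9.23-fold in replicate 1, 7.0-fold in replicate 2 and 7.06-fold in replicate 3, a mean of 7.76 ± 1.27 (SD, n = 3). All 9 sites lay in introns, and 0 of the 9 in a coding exon. Of the 40 rows of the pooled list in the same region, 35 were likewise intronic. The share over all optimal peaks is not given, so this count has no background here.

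**Figure D1:**
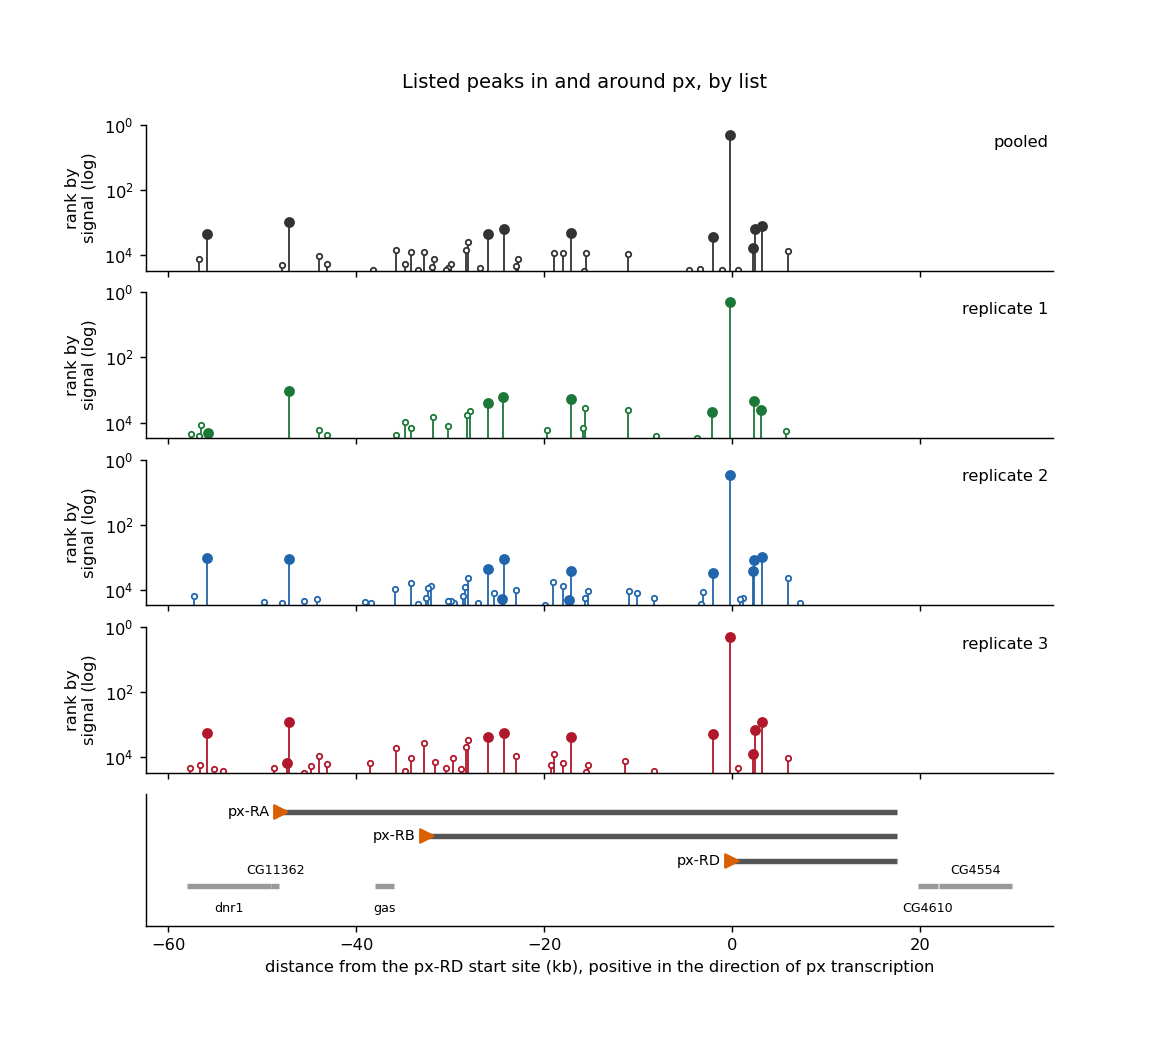
Listed peaks from 10 kb before to 10 kb past px. Each panel shows 1 relaxed list, with distance from the px-RD start site in kb on the horizontal axis and rank by signal on a log scale, rank 1 at the top. Filled circles overlap an optimal peak and open circles do not. The lowest panel shows px-RA, px-RB and px-RD with their start sites as triangles, and the other genes as grey bars. The strongest peak stands just upstream of the px-RD start site in all 4 lists, and no row lies from 7232 bp downstream of that start site onwards.

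Near the px-RD start site there were 3 further optimal peaks. On the downstream side, 2 lay in the first intron of px-RD, which is 13074 bp long. The one 2413 bp downstream (chr2R:22511468-22511903, signal 292.7) ranked 2149, 1247 and 1497 in replicates 1, 2 and 3. The one 3175 bp downstream (chr2R:22510706-22511141, signal 330.5) ranked 3994, 983 and 855. On the upstream side, a peak 2011 bp away (chr2R:22515892-22516327, signal 201.4) ranked 4627, 3070 and 1939 and was the weakest of the 9 sites.

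Having 3 other optimal summits within 5 kb was uncommon but not rare. Of all 3905 optimal peaks, 312 (7.99%) had as many, and 1841 (47.1%) had 0. Among the 25 strongest optimal peaks, 6 had as many and 11 had 0.

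Further upstream of px-RD, 4 optimal peaks were spread over the rest of the gene. A peak 17.1 kb upstream, also in intron 12 of px-RA (chr2R:22530995-22531430, signal 246.3), ranked 1884, 2671 and 2307 in replicates 1, 2 and 3. In intron 5, of 3110 bp, lay peaks 24.3 kb upstream (chr2R:22538178-22538613, signal 296.6) and 26.0 kb upstream (chr2R:22539875-22540310, signal 230.9). The first ranked 1614, 1107 and 1849 and the second 2500, 2304 and 2318. The ranks of this second site were the closest together of the 8, with an SD of 109 over the libraries.

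The second-highest px signal, 390.6, was in intron 1 of px-RA, an intron of 776 bp, 851 bp downstream of the first start site (chr2R:22560996-22561431). It ranked 1082, 1094 and 835 in replicates 1, 2 and 3. The ninth site, in an intron of dnr1, 7943 bp upstream of the first px start site (chr2R:22569790-22570225, signal 230.5), ranked 20804, 1048 and 1809. dnr1 encodes a RING-finger protein that represses the Imd immune pathway. Replicate 1 therefore had only a background-level row there (−log10 q-value 0.169), while replicates 2 and 3 had a strong one (3.89 and 3.92).

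Support from the libraries followed this split. Over the 3921 strongest rows of each library, replicates 2 and 3 each had an overlapping row at 9 of 9 sites, and replicate 1 at 6 of 9. Over all optimal peaks the shares were 84%, 81.2% and 86.9% for replicates 1, 2 and 3. Support in all 3 libraries was found at 6 of the 9 sites and at 64.4% of all optimal peaks, so the px count is near the background. The 3 sites missing from replicate 1 alone were those 2011 bp upstream and 3175 bp downstream of px-RD and the one in dnr1, and 9.48% of all optimal peaks were missing in this way. The optimal list was made from the same libraries, so this support is built in.

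**Figure D2:**
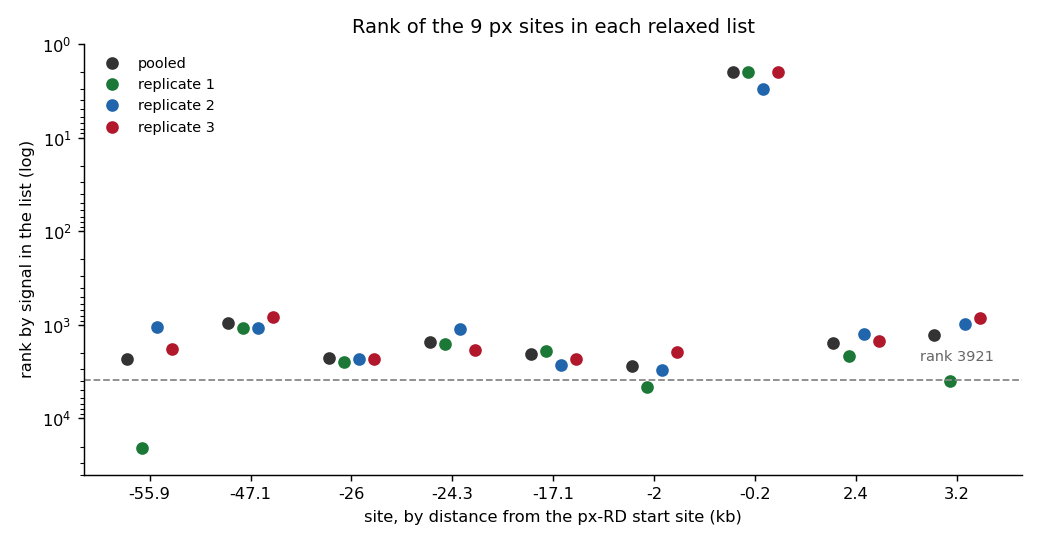
Rank of the 9 sites in the pooled list and in each library, on a log scale with rank 1 at the top. Sites are ordered by distance from the px-RD start site in kb, negative upstream, and the dashed line marks rank 3921. The strongest peak is at rank 2 or 3 in all 4 lists, and replicate 1 is below the line at 3 other sites.

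Summit positions at the weaker sites varied more. The spread over the libraries ran from 6 to 145 bp, with a median of 70 bp over the 8 sites. It was 6 bp at the site 26.0 kb upstream and 14 bp at that 17.1 kb upstream. It was widest, 145 bp, in dnr1 and 135 bp at the site 2011 bp upstream, where replicate 1 stood apart from the other libraries.

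**Figure D3:**
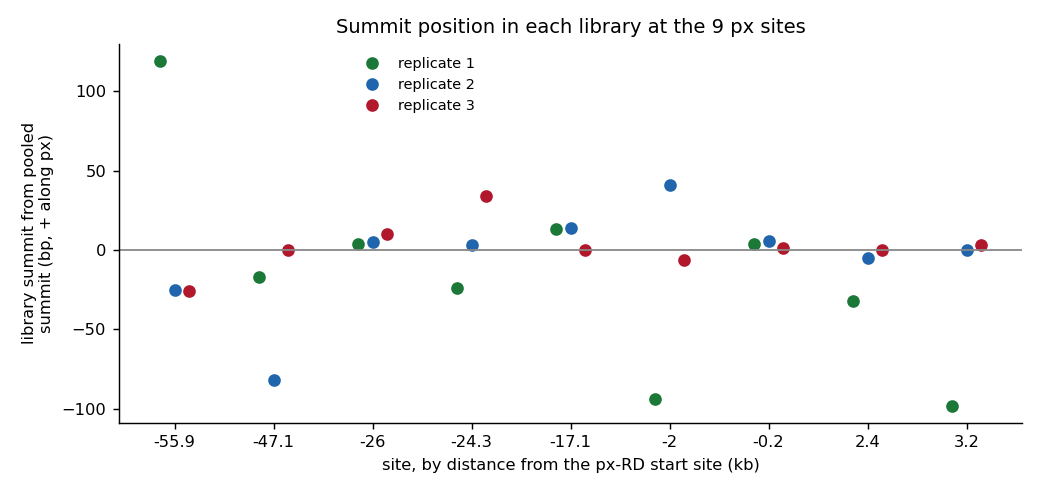
Summit of each library's row relative to the pooled summit, in bp and positive in the direction of px transcription, at the 9 sites ordered by distance from the px-RD start site in kb. The library summits of the strongest peak lie within 5 bp, while those of the weaker sites spread by 6 to 145 bp.

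The other start sites of px had no optimal peak within 500 bp. At the px-RB start site the pooled list had a row 291 bp upstream (rank 8230, signal 92.5), replicate 3 had one at the same distance (rank 3751), replicate 2 had 3 rows of which the best ranked 7581, and replicate 1 had 0. At the first start site the pooled list had a row 113 bp downstream at rank 20204, replicate 2 had one at rank 24747, and replicates 1 and 3 had 0. The same rows lay 355 bp (pooled) and 308 bp (replicate 2) upstream of the start site of CG11362, on the other strand. The nested gene gas, in an intron of px and on the other strand, had a row within 500 bp upstream of its start in every relaxed list. These rows ranked 23390, 9284 and 5241 in replicates 1, 2 and 3. Of all genes, 2076 of 18164 (11.4%) had an optimal summit within 500 bp of a start site.

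The px window held many rows of the relaxed lists. The pooled list had 40 rows in the window, 31 of them not optimal. With optimal peaks included, the density was 45.6 per 100 kb against 22.4 per 100 kb over the whole list. Replicates 1, 2 and 3 had 28, 48 and 41 rows, against 19.7 in each if rows were evenly spread. For optimal peaks the density was 10.3 per 100 kb against 2.92. The highest row outside the optimal list lay 28.1 kb upstream of px-RD (chr2R:22541973-22542408, signal 156.3, pooled rank 3939), just under the lowest signal in the optimal list, 157.0. It ranked 4486, 4219 and 3048 in replicates 1, 2 and 3. The weakest px site inside the list had a signal of 201.4.

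Of the 31 pooled rows in the window that were not optimal, 15 (48.4%) overlapped a row in all 3 libraries. Another 2 (6.45%) overlapped a row in 0 libraries. Over all 26064 such rows the share with all 3 was 36.4%, and the share with 0 was 3.13%. Within 5 kb of the strongest summit the pooled list had 8 weaker rows and the libraries 4, 8 and 5. The nearest was 836 bp away in the pooled list, at rank 28370, and 1898, 1120 and 910 bp away in replicates 1, 2 and 3. The strongest px peak thus had no other listed row within these distances.

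The rows stopped short of the end of the gene. No row of any relaxed list had its summit from 22506867 to the downstream edge of the window, 22.6 kb that include the last px exons, CG4610 and part of CG4554. The empty stretch ran on past the window to a length of 56.4 kb (chr2R:22450492-22506867), and touched 7 genes, px among them. CG4610 and CG4554 lay wholly inside it. The median gap between neighbouring summits of the relaxed lists together was 161 bp, and 85 of 116636 gaps (0.0729%) were at least as long. By length such gaps weigh more, as they make up 8.62% of the summed length of all gaps between neighbouring summits. Within px, an annotated jockey transposon (3483 bp, in intron 12 of px-RA) also held 0 summits in every relaxed list. Whether reads can be placed in these stretches was not tested.

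By number of optimal peaks px was among the most occupied genes, although several were above it. Its 8 summits in the gene body were matched or exceeded by 24 of 18164 genes (0.132%), px included, and 12 genes had more, up to 19. Most of these genes are long. Of 319 genes of at least 50 kb, 20 (6.27%) had as many as px, the median was 1 and 138 had 0. Per unit length px had 11.8 optimal summits per 100 kb, which placed it seventh of these long genes, whose median was 1.14.

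**Figure D4:**
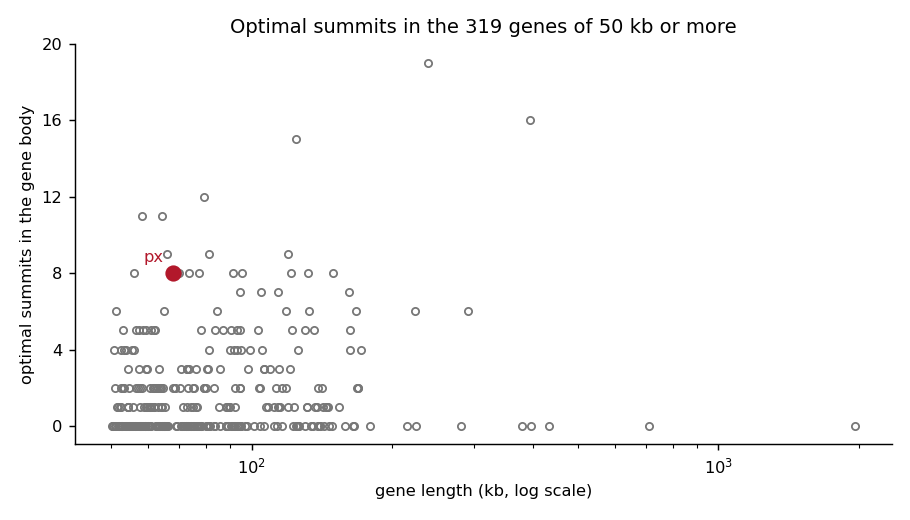
Optimal summits in the gene body against gene length in kb (log scale) for the 319 genes of at least 50 kb, 1 circle per gene, with px filled. px has 8 summits in 67769 bp, and the median of these genes is 1.

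The windows around the highest-ranked neighbours of px differed in form. The same rule gave 15 optimal peaks in 84341 bp around ush and cbt and 1 in 22943 bp around Zip89B, against 9 in 87769 bp for px. ush encodes a cofactor of GATA factors. At ush and cbt the strongest peak exceeded the next 3.54-fold, with a second signal of 822.7, against 7.93-fold and 390.6 at px in the same list. At Zip89B there was no second optimal peak within the window. These counts describe 3 loci chosen for their signal and were not tested.

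The sites most like the strongest px peak in their ranks were found by the summed absolute difference in log2 rank over the pooled list and the 3 libraries. The closest was the site in an intron of ush, 1391 bp upstream of cbt, with ranks of 4, 2 and 6 in replicates 1, 2 and 3 and a summed difference of 3.75. It was followed by an intronic site 1037 bp from a CG11050 start site (ranks 7, 4 and 3), the Zip89B site (3, 1 and 1), an intergenic site 11923 bp from CG13323 (6, 5 and 5) and the promoter of Ugalt (5, 6 and 7), which encodes a UDP-galactose transporter. Of these 5 sites, only that of Ugalt was within 500 bp of a start site, as the px peak was.

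The bases under 4 of these sites are given to show the composition of highly ranked summits beside that of px, 101 bp centred on each summit on the forward strand (dm6, reference sequence from RefSeq). Capitals mark runs of at least 6 bases made only of A and T.
cbt site, chr2L:481029-481129: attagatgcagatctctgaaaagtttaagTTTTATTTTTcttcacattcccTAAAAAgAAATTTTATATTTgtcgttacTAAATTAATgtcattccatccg
CG11050 site, chr2L:6612674-6612774: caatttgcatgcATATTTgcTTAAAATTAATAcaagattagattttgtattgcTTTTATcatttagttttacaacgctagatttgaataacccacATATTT
Zip89B site, chr3R:16309497-16309597: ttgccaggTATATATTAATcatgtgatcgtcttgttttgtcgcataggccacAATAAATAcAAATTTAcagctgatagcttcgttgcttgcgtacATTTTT
Ugalt site, chrX:2703844-2703944: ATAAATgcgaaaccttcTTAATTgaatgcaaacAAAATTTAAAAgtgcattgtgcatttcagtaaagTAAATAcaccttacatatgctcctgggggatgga
These windows had G+C contents of 26.7%, 24.8%, 35.6% and 33.7%, and each held 4 such runs, of 29 to 38 bases in all. The window of the site nearest CG13323, whose bases are not printed, had a G+C content of 26.7% and 6 runs of 41 bases in all, the longest of 9 bases. The px window held 3 runs of 22 bases in all, with a longest run of 9 bases. The median longest run over all optimal summits was 10 bases.

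The strongest px summit lay in a short A+T-rich stretch between G+C-rich sequence. Its G+C content within 50 bp was 27.7%, against 52.5% as the mean of windows centred 100 bp to either side and 50% at 300 bp. Over all optimal summits the mean was 33.8%, and 29.6% of summits had a value at or below that of px. The drop of 24.8 percentage points from 100 bp away was matched or exceeded at 66 of 3905 summits (1.69%), and the median difference was -5.94 points. The drop from 300 bp away was less unusual, with 17.0% of summits as low. The distance set in the plan was 300 bp, and that of 100 bp was an added choice. Of the 9 px sites, 7 had lower G+C at the summit than in the flanks at 300 bp, and 78.5% of all optimal summits did. The exceptions among the px sites were the site 2413 bp downstream of px-RD (44.6% at the summit against 34.7%) and the dnr1 site (49.5% against 39.6%).

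**Figure D5:**
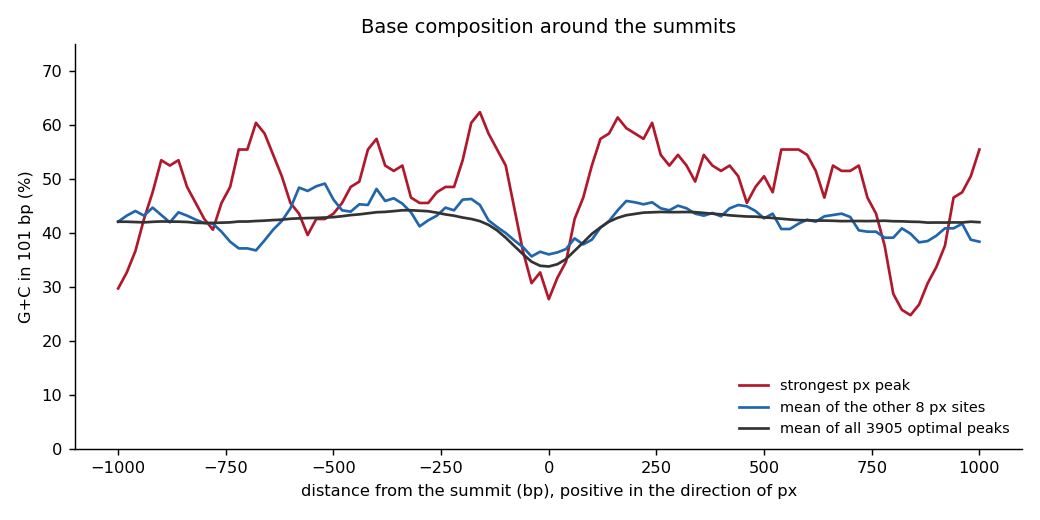
G+C content in 101 bp windows against distance from the summit in bp, positive in the direction of px transcription, for the strongest px peak, the mean of the other 8 sites and the mean of all 3905 optimal peaks. The strongest px peak falls to 27.7% at the summit against a mean of 52.5% for windows 100 bp to either side, while the mean of all peaks falls to 33.8%. The profiles of all peaks are not oriented by gene.

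Short motifs of known factors were looked for on both strands within 50 bp of the summits. The letters were GAGAG for GAGA factor, TATCGATA for the DNA replication-related element, TAATTA for homeodomains, CAGCTG for an E-box, CAGGTAG for Zelda, CGATA for BEAF-32 and TATAAA for a TATA box. The words CACTGAGA, CACAGTGG and CACTGTGC were added because earlier work on these data had picked them out. None of the 10 was within 50 bp of the strongest px summit. Over all optimal summits their shares ran from 0.410% for CAGGTAG to 22.5% for TATAAA, so most summits lacked any given one.

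Away from the summit but inside the same peak, GAGAG was repeated. The 401 bp of the strongest px peak held 7 matches, overlapping ones counted, 4 downstream and 3 upstream of the summit at 92 to 193 bp. The median over all optimal peaks was 0, 43.4% of peaks held at least 1 match, and 93 of 3905 (2.38%) held as many as px. Of the other 8 px sites 3 held a match, at most 4. A match describes the letters and not a bound site.

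For wing vein patterning genes, the share with an optimal peak at a start site was near that of all genes. Of 45 genes listed, 44 were matched, and 6 of these (13.6%, exact 95% interval 5.17 to 27.4) had an optimal summit within 500 bp of a start site, against 11.4% of all genes. These were px, aos, N, spi, net and rho. Without px there were 5 of 43 (11.6%, exact interval 3.89 to 25.1). Over the 3921 strongest rows of each library, the count was 5 of 44 in replicate 1, where 10.6% of all genes had such a summit. It was 10 of 44 in replicate 2, against 12.3% of all genes, and 8 of 44 in replicate 3, against 11.7%. In replicates 2 and 3 the share of listed genes stood further above that of all genes than in the optimal list. Here and in the gene body counts below, all genes are 18164 genes, of which 13945 are protein coding. Shares over protein-coding genes alone are not given.

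In the gene body, 20 of 44 listed genes had an optimal summit (45.5%, with exact bounds of 30.4 and 61.2), and 8.92% of all genes did, but the listed genes are long. At either place 21 of 44 had one (47.7%), and 15.6% of all genes did. The median length of the listed genes was 14251 bp against 1656 bp for all genes. Among genes at least that long, 44.9% of all 1468 had an optimal summit in the body, and 15 of the 22 wing vein genes (68.2%), or 14 of 21 without px. No test was made on this list. The intervals cover counting error only.

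The 9 listed genes of highest signal after px belonged to several pathways, whose values were interleaved. Among those of epidermal growth factor receptor signalling, aos encodes a secreted inhibitor of the receptor and had a peak of signal 1172 in its gene body, 3092 bp from its start site (rank 83), and one of 358.8 within 196 bp of it. S (Star), which acts in the export of the ligand, had one of 961.6 (rank 144) 5411 bp from a start site. spi, which encodes that ligand, had one of 656.3 (rank 368) 278 bp from a start site. vn, which encodes a neuregulin-like ligand, had one of 461.5 (rank 716), nearer to a start site of mad2 than to its own.

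In the other pathways, Mad, a transcription factor of bone morphogenetic protein signalling, had a peak of 750.6 (rank 269) 661 bp from a start site, and dpp, a ligand of that pathway, one of 590.9 (rank 445) 5279 bp away. cv-2, whose product binds such ligands, had one of 512.0 (rank 570), nearer to CG17974. N, the Notch receptor gene, had one of 680.5 (rank 339), nearest to a start site of CG18508, and one of 233.1 within 421 bp of its own start. ptc, which encodes the Hedgehog receptor, had one of 434.5 (rank 805), nearest to lncRNA:CR44281. These peaks overlapped a strongest row in all 3 libraries. None reached the 3098 of px, which follows from the choice of px for its signal.

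The remaining genes with a promoter peak, net and rho, lay below these 9 in signal and were singled out after their values were seen. net encodes a basic helix-loop-helix factor that restricts veins, as px does, and its signal was 222.8, 203 bp from its start site. rho encodes a protease that activates the receptor's ligands, and its signal was 205.4, 119 bp from a start site. Each overlapped a strongest row in 2 of 3 libraries.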

How the data were processed

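Peaks were called on each library's own alignment and on the pooled alignments against 1 control alignment in dm6, per the deposited file listings. For the aligner, the caller and the discovery-rate cutoff, names and values were not given in the sources used here. Signal and −log10 q-value are the authors', as deposited. The q-value has a ceiling, reached by 2045, 3909 and 4164 rows in replicates 1, 2 and 3, so rows were ranked by signal. Summits are the start plus the offset in the last column, 1-based here. Genes came from Ensembl release 115 of the same assembly. Rows matched by an overlap of at least 1 bp, and matching was tested on simulated data. Analyses used Python 3.11.15, pandas 2.3.3, numpy 2.4.6, scipy 1.17.1 and matplotlib 3.10.9.

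No test was made: the members, gene list, motifs and comparisons were chosen with earlier results of these data known. Named genes are px, genes in its window, the 10 wing vein genes of highest signal, and the 5 sites most like px in rank. Outside this rule, net and rho, CG14100 (the row above px in replicate 1), ush, and the genes nearest a listed peak were named after their values were seen. The control alignment and the reads were not used here, so depth in reads is unknown.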

Additional observations from a re-analysis of the deposited data

How the results depend on the processing

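The strongest px peak kept its mean rank of 2.33 when an overlap of 50% or summits within 50 bp were required, and leaving out each library gave 2.00 to 2.50. Ranked by −log10 q-value, where it shares the ceiling, its mean rank was 1687. Its summit was at -207 bp from the px-RD start in the optimal and pooled lists, -203.3 bp as the mean of the libraries, and -204.5 to -202.0 bp with each library left out. Its G+C content was 25.5% within 25 bp and 37.3% within 100 bp. The 9 px sites were 8 or 9 with other margins, and 5 in the stronger 50% of the optimal list. Support in all libraries was 6 of 9, 3 with 1960 rows per library, 8 with 7842 and 9 with all rows. It was 6 to 9 with each library left out, the 9 being without replicate 1. With all rows, 3710 of the 3905 optimal peaks likewise had an overlapping row in every library. In the stronger 50% of a list the share of all its rows is 50% by construction. For the other changed settings the shares of all optimal peaks are not given, so those counts of px sites have no background here. The 40 pooled rows were 24 in the stronger 50% of the pooled list. The 6 wing vein genes with a promoter peak were 4 at 250 bp, 11 at 1000 bp, and 3 in the stronger 50% of the optimal list. The shares of all genes at these settings are not given here, so these counts cannot be set against a background. No paired analysis was possible because there is 1 group. Differences in depth between libraries are unknown from peak lists, and 3 libraries limit each SD.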
